A study of Homo sapiens with 3 samples.

Results

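C19orf43, now named TRIR, encodes a telomerase RNA component interacting RNase, an enzyme that trims RNA from its end. Its promoter is on the minus strand of human chromosome 19 and was 1 of 13 promoters edited in HEK293T, an established human embryonic kidney cell line. The series measured which sequences set where transcription starts. In CRISPR-Cap, Cas9 protein loaded with 1 guide RNA per promoter was transfected in 2 rounds, which left small deletions in the genome, and the capped 5′ ends of the RNA were then read from a primer in the same gene. A read that crosses the edited site shows both where its RNA started and which deletion that RNA carries. The edited ends (RNA with a deletion) and the unedited ends (RNA without one) come from the same transfected cells, so the unedited ends are the only comparison group, and cells that received no Cas9 were not analysed here.

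The members are every listed 5′ end of C19orf43, 49224 of the 131949 ends in the list (37.3%), which makes it the target with the most ends. The edited ends number 19497 and the unedited ends 29727, an edited share of 39.6% (Wilson 95% interval 39.2 to 40.04%). The labels give 2 libraries, but the list pools them with no column to part them. There is therefore no replicate error and no test between samples, and no p-value is given. Every interval below is a 95% interval for counting error only, and it is too narrow if lines are PCR reads and not molecules. Without genomic DNA counts, the efficiency of editing and the RNA output of the edited alleles cannot be told apart in the edited share.

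An RNA polymerase II promoter rarely starts transcription at 1 base. Initiation spreads over clusters of positions, most often on a purine that follows a pyrimidine, and where a gene has separate clusters its transcripts differ in the length of the leader that precedes the start codon. A leader of a few bases leaves almost no room for a scanning ribosome. The zinc finger protein YY1 recognises a motif with the core AANATGGC (N is any base), and where this motif holds the start codon just after a transcription start it is also known as the translation initiator of short leaders.

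Both clusters lie in the first exon of the annotated transcript (GENCODE release 29, chr19:12730640-12734775 on hg38), in its leader. The widest gap between positions with at least 1% of the unedited ends was 43 bases, between 12734684 and 12734727, and it separates an upstream from a downstream cluster. The most used upstream start was 12734742, 85 bases before the A of the start codon (the codon is at 12734655 to 12734657). The most used downstream start was 12734663, which lies 79 bases nearer and leaves a leader of 6 bases. The sequences of both places, from the GENCODE transcript in the direction of transcription, show how close the downstream starts come to the coding sequence. Capitals mark the starts with at least 2% of the edited or of the unedited ends.
Upstream cluster, chr19:12734728-12734757: ctcttcccggcAtGcAttgttcgggacgag
Downstream cluster and start codon, chr19:12734653-12734682: CCtttgcgcggcAcctgGcGAcAaaatggc

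The last 8 bases of the second window read AAAATGGC and match AANATGGC. Their A-T-G is the start codon, and the match at 12734653 to 12734660 begins on a used start. It was the only match on either strand in the first 300 bases of the transcript, and 8.29% of 82352 protein-coding GENCODE transcripts had a match in a window of that length. A match is a description of letters and shows no binding.

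In all, 10 positions are marked, 7 of them downstream, and together they held 87.9% of the unedited ends. Of the 10, 6 were a purine after a pyrimidine. The way positions were counted was itself chosen by this pattern in the same ends, so it is no separate finding. The starts at 12734681 and 12734682 were both a C after a pyrimidine, at the head of the run CCTTT, and not the usual initiation bases.

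Most deletions lay in the coding sequence, just downstream of the downstream cluster. The most deleted base was 12734640, 17 bases after the A of the start codon and missing from 78.8% of the edited ends. It lies 102 bases downstream of the upstream main start and 23 bases downstream of the downstream main start. Bases missing from at least 10% of the edited ends ran from 12734616 to 12734654, and that last base directly follows the start codon. There were 460 distinct deletions, of 1 to 99 bases, and 36 of them had at least 100 ends and together held 72.9% of the edited ends. The start codon was cut in 1819 edited ends (9.33%).

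**Figure D1:**
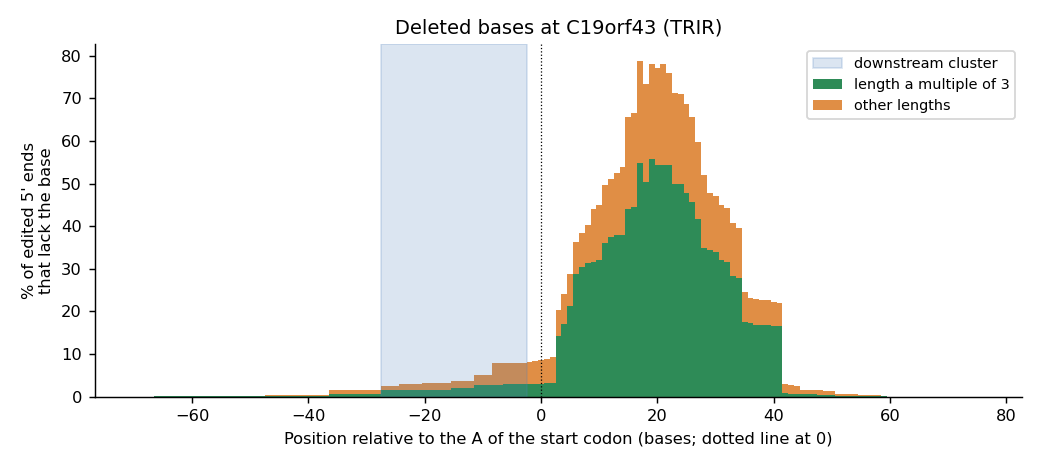
The share of edited 5′ ends that lack each base, by position relative to the A of the start codon (0, dotted line), in percent; green bars are deletions whose length is a multiple of 3, orange bars the other lengths, stacked. The blue band marks the downstream cluster (12734660 to 12734684); most deletions stop short of it, and the peak is 17 bases into the coding sequence at 78.8%.

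The first bases of the coding sequence, chr19:12734610-12734657, are shown from the A of the start codon for the deletions on which the results turn. Capitals are the deleted bases.
Unedited: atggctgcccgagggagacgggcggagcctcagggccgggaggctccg
Deletion 12734616 to 12734654, 39 bases, the most frequent: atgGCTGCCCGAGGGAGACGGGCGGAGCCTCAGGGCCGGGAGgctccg
Deletion 12734616 to 12734651, 36 bases: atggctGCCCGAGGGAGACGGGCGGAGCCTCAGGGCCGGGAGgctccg
Deletion 12734623 to 12734642, 20 bases: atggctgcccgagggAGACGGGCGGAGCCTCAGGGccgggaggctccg
Deletion 12734631 to 12734642, 12 bases: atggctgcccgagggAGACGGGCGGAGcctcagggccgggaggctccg
Deletion 12734627 to 12734638, 12 bases: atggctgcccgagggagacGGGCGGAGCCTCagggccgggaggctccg
Deletion 12734640 to 12734651, 12 bases: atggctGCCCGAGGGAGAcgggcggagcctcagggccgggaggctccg
Deletion 12734640 to 12734642, 3 bases: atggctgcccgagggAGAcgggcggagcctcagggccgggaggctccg

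The 10 most frequent deletions made up 45.4% of the edited ends, and in 8 of them at least 2 bases at the edges were repeated, so that the same allele can be written with shifted edges. The 39-base deletion is an example, since gct stands both at its first 3 deleted bases and directly after it. Over all edited ends, 49.8% had such a repeat of at least 2 bases. Lengths that are a multiple of 3, which keep the reading frame, made up 37.0% of the distinct deletions and 68.8% of the edited ends, and 7 of the 10 most frequent deletions had such a length.

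Deletions were put into classes by their upstream edge, the end nearest to the starts. In 377 deletions with 17930 ends (92.0% of the edited ends) the edge stayed at or below 12734659, so that every base of the downstream cluster (12734660 to 12734684) was kept. In 57 deletions with 1273 ends the edge fell within the cluster, and in 26 deletions with 294 ends the deletion ran through it. These long deletions had a median length of 50 and 83 bases over their ends, against 18 bases in the deletions that spared the cluster.

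On edited alleles that kept every downstream start, the downstream cluster held less of the RNA. It held 52.2% of 17930 edited ends (51.5 to 53.0%), against 60.9% of 29727 unedited ends (60.3 to 61.4%), an edited minus unedited difference of −8.62 percentage points (Newcombe interval −9.54 to −7.71). With every deletion of at least 50 ends given the same weight the difference was −4.89 points. Where the deletion ran into the cluster, 8.48% of the edited ends (7.08 to 10.1%) still began on the downstream side. Where it ran through the cluster, 1.02% did (3 of 294 ends, 0.348 to 2.96%). In these last classes the low share follows from how they were defined, since the starts themselves were removed.

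**Figure D2:**
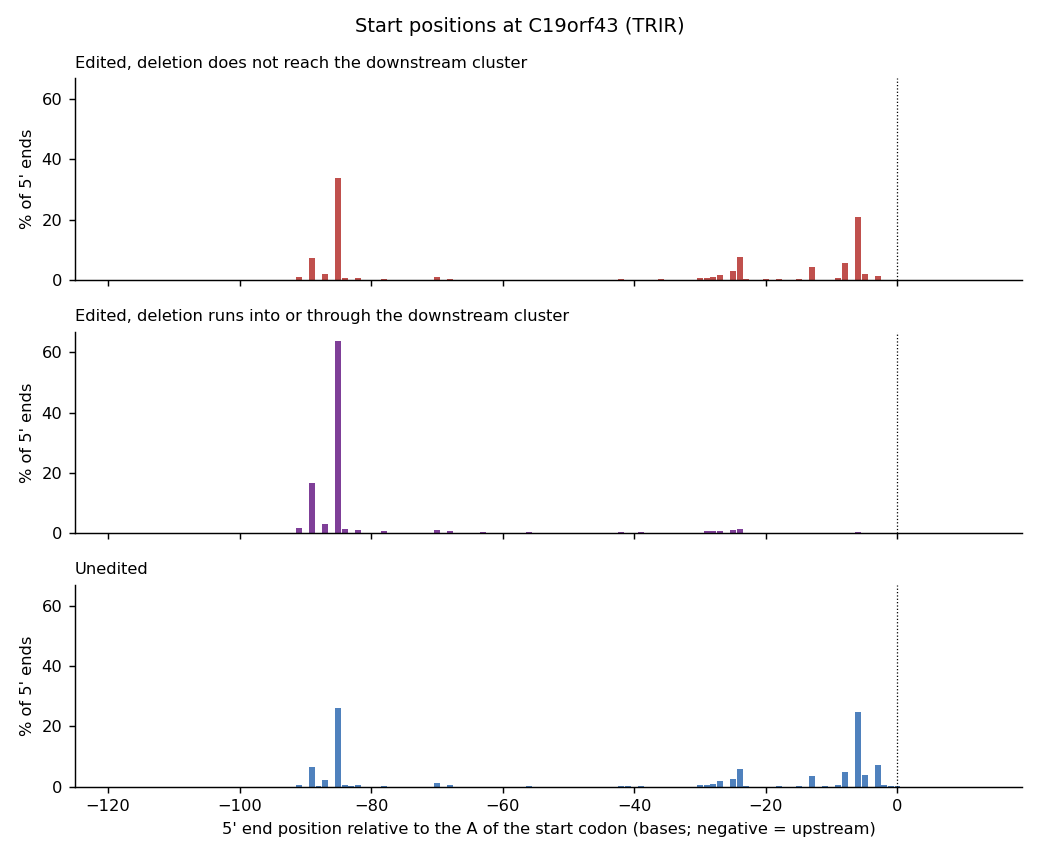
The percentage of 5′ ends at each position, relative to the A of the start codon (0, dotted line), for edited ends whose deletion does not reach the downstream cluster (top), edited ends whose deletion runs into or through it (middle) and unedited ends (bottom), on 1 scale. The upstream peak, 85 bases before the codon, is present in all 3 panels, while the group of starts near the codon is smaller in the top panel than in the bottom one and nearly empty in the middle.

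The border of the class is a place of few ends. Deletions with an edge at 12734655 to 12734659, just outside, gave 34.1% downstream ends (252 ends), and those with an edge at 12734660 to 12734668, just inside, gave 10.9% (837 ends). No deletion with at least 100 ends had its edge within 2 bases of the border.

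The difference was smaller once starts close to the deletion were left out. Few edited ends were listed with a start next to their deletion: 26 of 19497 had fewer than 8 bases of their RNA upstream of the deletion, counting the start itself, and 17 of these were listed at or beyond the edge of their own deletion. When edited ends with at least 8 such retained bases were set against unedited ends at the positions open to the same deletion, the downstream share was 52.2% in edited ends and 59.9% expected from unedited ends, a difference of −7.69 points (−8.61 to −6.77). With every deletion of at least 50 ends given the same weight it was −4.35 points. With at least 12 retained bases the difference was −4.61 points (−5.55 to −3.68). With at least 20 it was −1.28 points (−2.25 to −0.323), on 45.2% in edited ends and 46.5% expected. Whether reads with a short stretch before the deletion are lost in alignment was not tested.

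Within the upstream cluster the differences were smaller. The main start 12734742 held 70.8% of the upstream ends on alleles that kept the downstream cluster (6067 of 8564), against 66.4% in unedited RNA (7722 of 11635), a difference of 4.47 points (3.18 to 5.76). With equal weights for the deletions it was 2.76 points. Its share of all ends was 33.8% in the same edited ends and 26.0% in unedited ends. That difference of 7.86 points (7.01 to 8.72) holds both the lower downstream share and the within-cluster value. Where the deletion ran into the cluster the main start held 69.2% of the upstream ends, 2.82 points above unedited (−0.0260 to 5.54), and where it ran through the cluster it held 65.6%, a difference of −0.733 points (−6.43 to 4.56). Both of these intervals include 0.

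The other marked upstream starts took slightly smaller parts. The start at 12734746, 4 bases upstream of the main start, held 15.1% of the upstream ends in edited RNA that kept the downstream cluster and 16.6% in unedited RNA, and 12734744 held 4.12% in that edited RNA and 5.57% in unedited RNA. The differences were −1.49 points (−2.50 to −0.466) and −1.45 points (−2.04 to −0.850).

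Within the downstream cluster the starts differed in how their shares compared. The start at 12734660, which leaves a leader of 3 bases and is the first base of the AAAATGGC match, held 1.28% of the edited ends that kept the cluster (229 ends) and 7.33% of the unedited ends (2179 ends). As a share of the downstream ends alone this was 2.45% in edited and 12.04% in unedited RNA, a difference of −9.60 points (−10.2 to −9.03). The start at 12734662 also had a lower share, with 3.62% of the downstream ends in edited and 6.45% in unedited RNA (−2.83 points, −3.34 to −2.30).

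The lower share of 12734660 did not hold for the smallest deletions. With 1 or 2 deleted bases it held 14.5% of the ends (11.2 to 18.5%, 51 of 352 ends over 21 deletions), above the unedited 7.33%. With 3 to 9 bases it held 1.78% (1.43 to 2.22%), with 10 to 29 bases 0.859% (0.695 to 1.06%) and with 30 or more 0.430% (0.256 to 0.721%). This split by length was chosen after the values were seen.

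The main downstream start, 12734663, held a similar part of the cluster in both. It had 40.1% of the downstream ends in edited and 40.8% in unedited RNA, a difference of −0.717 points whose interval (−1.94 to 0.509) includes 0. Farther from the coding sequence the shares were higher in edited RNA. At 12734665 the share of the downstream ends was 10.6% in edited and 8.10% in unedited RNA, and at 12734670 it was 8.08% in edited and 5.96% in unedited RNA. At 12734681 it was 14.6% in edited and 9.62% in unedited RNA, a difference of 5.03 points (4.20 to 5.87), and at 12734682 it was 5.98% in edited and 4.45% in unedited RNA.

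Each start was next set against the upstream cluster, by the number of bases between it and the deletion. The ends at a start were divided by the upstream ends of the same deletions, and this ratio in edited RNA was divided by that in unedited RNA, so that 1 means equal relative use. With 8 to 11 retained bases 12734663 had a relative use of 0.367 (0.334 to 0.403, 599 ends over 45 deletions), and with 12 to 15 bases 0.471 (0.423 to 0.524). With 16 to 19 bases it was 1.01 (0.898 to 1.15), and it stayed near 1 at 20 to 24 (0.991) and 25 to 29 bases (1.05). At 30 to 34 bases it was 0.577 (0.456 to 0.730), on 96 ends. Of the 262 upstream ends there, 112 came from 1 deletion, 12734613 to 12734632, with 1.36% of its 147 ends at 12734663. The value without that deletion was not computed. The deletions at the shortest distances include the frequent alleles 12734616 to 12734654 and 12734616 to 12734651. Over 8 to 19 retained bases the relative use of 12734663 was 0.494 (0.463 to 0.527), and without the deletion that holds the most upstream ends there it was 0.579.

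The neighbouring start 12734665 was also lower at short distances, with 0.233 at 8 to 11 and 0.431 at 12 to 15 retained bases, and 1.41 and 1.68 at 16 to 19 and 20 to 24. The start at 12734660, with deletions of every length pooled, had a value below 1 at every distance, although at 30 to 34 bases (7 ends) its interval, 0.263 to 1.26, includes 1. Its relative use was 0.0806 at 8 to 11 retained bases, 0.192 at 16 to 19 and 0.285 (0.235 to 0.346) at 20 to 24, where 12734663 was at 0.991. Over all deletions that left it 20 or more bases its relative use was 0.300 (0.252 to 0.356, 145 ends), against 0.977 (0.919 to 1.04) for 12734663 over the deletions that left it as many, and these intervals do not overlap.

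For the starts on a C, farther upstream, relative use was low up to larger distances. At 25 to 29 retained bases 12734681 had a relative use of 0.382 (0.322 to 0.455) and 12734682 had 0.335 (0.251 to 0.446). These rest on 2605 and 2201 upstream ends, and in both cases 1343 of them came from the 39-base deletion 12734616 to 12734654. Values at this distance without that deletion were not computed. At 30 to 34 bases the values were 1.20 and 0.730, and at 35 to 44 bases 1.45 (1.32 to 1.59) and 1.37 (1.20 to 1.56).

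Distance and the place of the edge go together, so the starts were also compared on the same deletions. With edges at 12734653 to 12734654, directly after the start codon, all 7 downstream starts were used less than in unedited RNA relative to the upstream cluster. The values were 0.237 (0.210 to 0.268) at 12734663, 0.288 (0.219 to 0.378) at 12734670 and 0.373 (0.307 to 0.452) at 12734681, which has 27 or 28 retained bases there. Of the 2098 upstream ends in this group, 1343 came from the 39-base deletion 12734616 to 12734654. Its edge can also be written 3 bases lower, which would place it among edges at 12734650 to 12734652. Values without it, or with it moved there, were not computed. With edges at 12734650 to 12734652 the use of 12734663 was 0.464 (0.416 to 0.517), while that of 12734670 was 1.07 (0.895 to 1.27) and that of 12734681 0.803 (0.685 to 0.942). With edges at 12734645 to 12734649 the 4 starts from 12734665 upstream were at 1.21 to 1.41, and 12734660 was at 0.0976 (0.0619 to 0.154).

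**Figure D3:**
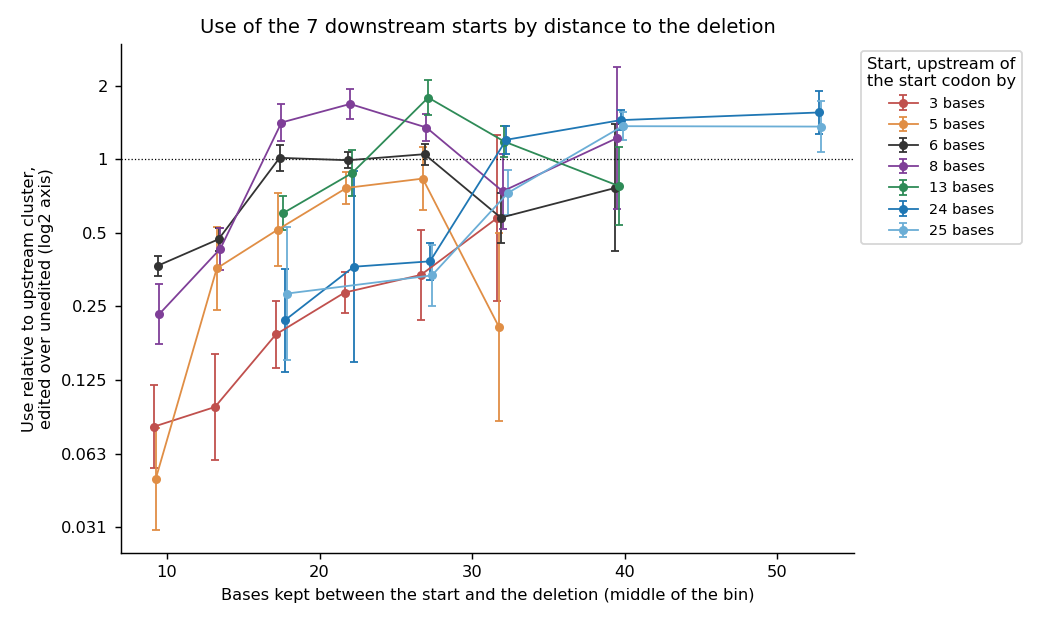
Use of each of the 7 named downstream starts relative to the upstream cluster, edited over unedited (log2 axis, 1 is equal), against the bases kept between start and deletion, with 95% counting intervals; bins with fewer than 5 edited ends are not drawn and points are offset slightly. The start 6 bases before the codon (12734663) is near 1 from 16 to 29 bases, the start 3 bases before it (12734660) stays at or below 0.575, and the starts 24 and 25 bases before it pass 1 at larger distances.

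Grouped by the upstream edge of the deletion, the downstream share was near the unedited share for edges from 12734635 to 12734649 and lower for edges from 12734650 on. With edges at 12734627 to 12734634 it was 51.8% (668 ends). Of these ends, 147 came from 1 deletion, 12734613 to 12734632, which had 23.8% downstream ends. The share without that deletion was not computed. With edges at 12734635 to 12734639 it was 64.7% (3313 ends), at 12734640 to 12734644 60.1% (5534 ends) and at 12734645 to 12734649 58.5% (2506 ends), around the unedited 60.9%. With edges at 12734650 to 12734652 it was 43.7% (2780 ends) and at 12734653 to 12734654 27.1% (2877 ends). Of these 2877 ends, 1851 came from the 39-base deletion 12734616 to 12734654, which had 27.4% downstream ends. Its edge can also be written 3 bases lower, so the step between these 2 groups leans on how that deletion is placed. Edges at 12734650 to 12734659 minus edges up to 12734649 gave −25.4 points (−26.9 to −23.9). The starts 3 to 8 bases before the codon (12734660 to 12734665, the near starts) took 38.5%, 35.9%, 34.9%, 21.4% and 13.7% of the ends in the 5 groups from 12734635 on, against 41.2% in unedited RNA. The starts 24 to 30 bases before the codon (12734681 to 12734687) took 19.2%, 16.1%, 15.6%, 13.5% and 9.07%, against 12.5% in unedited RNA. The near starts were thus below the unedited share in all 5 groups, while the farther ones were above it in the first 4.

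Deletions near the start codon can remove part of the AAAATGGC match or restore it from the bases they join. Among edges at 12734653 to 12734654, where both kinds occur, 21 deletions lost every AANATGGC match, and their ends were downstream in 27.95% (23.97 to 32.3%, 440 ends). The 5 deletions that still read AANATGGC after the repair had 26.9% downstream ends (25.2 to 28.7%, 2437 ends). For the near starts alone the values were 15.2% (12.2 to 18.9%) where the match was lost and 13.5% (12.2 to 14.9%) where it was kept. The intervals overlap for both measures, but both groups lean on single deletions. Of the 67 near ends where the match was lost, 37 came from 1 deletion, 12734637 to 12734653 (43 ends). Values without it were not computed, and an effect of the match was not tested. Most of the kept ends come from the 39-base deletion. In that deletion, printed above, the bases joined to the start codon again read gc.

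Deletions differed from each other by more than counting error. Over the 34 deletions with at least 100 ends that kept the cluster, the downstream share ran from 14.7% to 81.8% with a median of 54.04%, and the SD between deletions, 18.3 points, was 5.54 times the SD expected from counting. It was below the unedited 60.9% in 22 of the 34. The near starts took 0.862% to 66.9%, with a median of 30.5%, and were above the unedited 41.2% in 12. The main start's part of the upstream ends came closest to counting error, from 51.4% to 81.5%, with a median of 71.1% and an SD 1.68 times that of counting. It was above the unedited 66.4% in 25.

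The spread remained when the upstream edge was the same. Of the deletions with their edge at 12734642 the 12-base deletion had 5.71% near ends (3.68 to 8.74%, 333 ends), the 20-base deletion had 49.1% (45.7 to 52.5%, 835 ends) and the 3-base deletion 58.5% (53.3 to 63.6%, 352 ends). All 3 keep the same sequence upstream of the deletion, as the printed alleles show, and differ in how far it reaches into the coding sequence. The 12-base deletion had 18.6% of its ends at 12734670, a start that took 2.63% on the 20-base deletion, 1.99% on the 3-base deletion and 3.63% in unedited RNA. With the edge at 12734640, the 3-base deletion 12734638 to 12734640 had 66.9% near ends (61.2 to 72.1%) and the 18-base deletion 12734623 to 12734640 had 21.8% (19.8 to 23.9%).

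**Figure D4:**
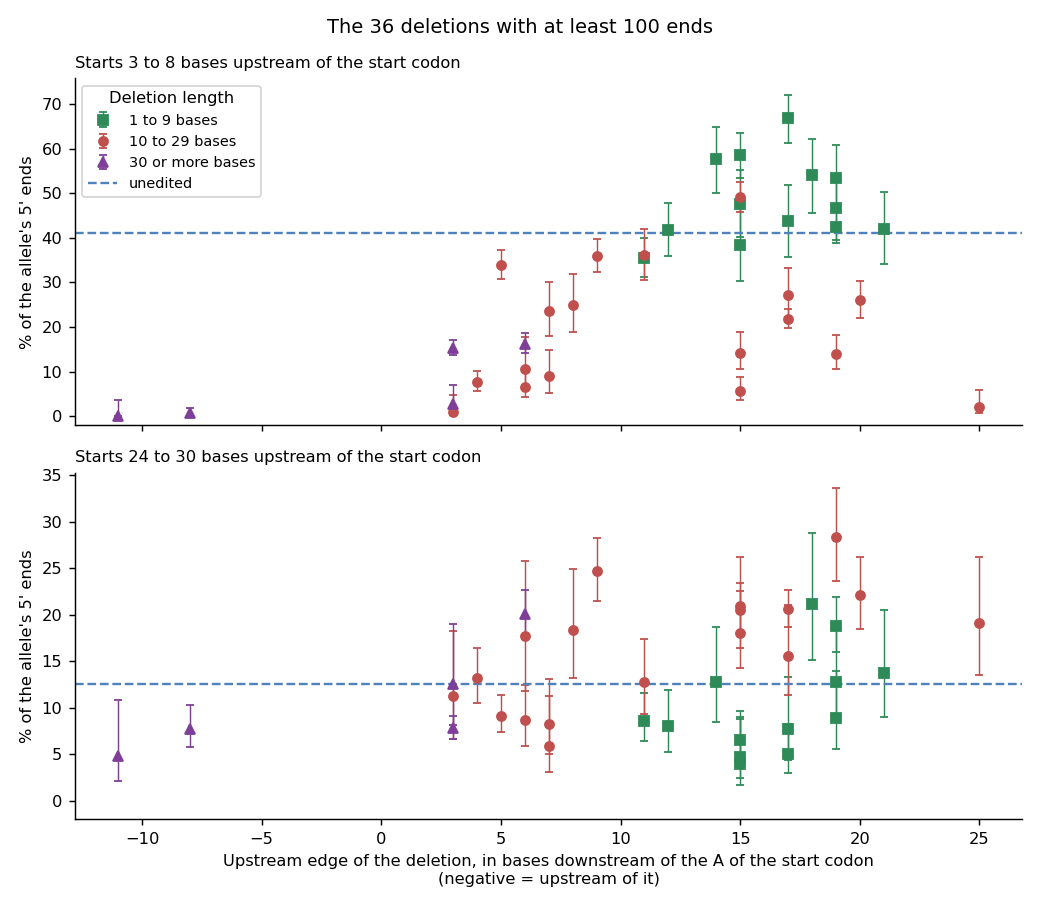
The share of each allele's 5′ ends at the near starts (top) and at the starts 24 to 30 bases before the codon (bottom), in percent with Wilson intervals, against the upstream edge of the deletion in bases downstream of the A of the start codon; 36 deletions with at least 100 ends, by length, with the unedited share as a dashed line. Short deletions (green squares) lie at or above the dashed line in the top panel more often than longer ones (red circles, purple triangles), and alleles with the same edge differ widely.

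Short deletions had more near starts than long ones. Among edges up to 12734649, deletions of 1 or 2 bases had 61.9% near ends (56.8 to 66.8%, 352 ends), those of 3 to 9 bases 49.0% (47.5 to 50.4%, 4416 ends) and those of 10 to 29 bases 27.01% (26.0 to 28.1%, 7159 ends). The few of 30 or more bases had 10.6% (94 ends). Deletions of 10 to 29 bases minus those of 1 to 9 bases gave −22.9 points (−24.6 to −21.1). The first 2 groups lay above the unedited 41.2%. Of the deletions with at least 100 ends that kept the cluster, 11 of 13 with 1 to 9 bases were above the unedited near share, as was 1 of 18 with 10 to 29 bases. The exception is the 20-base deletion 12734623 to 12734642, with its 49.1%.

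The farther starts ran the other way. The starts 24 to 30 bases before the codon held 20.95% of the ends with deletions of 10 to 29 bases and edges up to 12734649, against 10.96% with 3 to 9 bases and 12.5% in unedited RNA. Of the same frequent deletions, whatever their edge, 13 of 18 with 10 to 29 bases were above the unedited share here, and 5 of 13 with 1 to 9 bases.

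The start at 12734670, an A after a C that lies 13 bases before the codon, held a higher share with deletions of 10 to 12 bases, though not with these alone. All 4 deletions of 12 bases with at least 100 ends had a higher share there than the unedited 3.63%. Their shares were 18.6% (12734631 to 12734642), 12.1% (12734640 to 12734651), 10.6% (12734627 to 12734638) and 8.15% (12734639 to 12734650). Their near starts held 5.71%, 6.55%, 13.9% and 8.89%, against 41.2% in unedited RNA. These deletions share their length and overlap in part, and 12734639 to 12734650 differs from 12734640 to 12734651 by a shift of 1 base, so they are not 4 separate stretches.

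At 12734670 the frequent 10-base deletion 12734631 to 12734640 had 9.63% of its ends (6.39 to 14.3%). The frequent 11-base deletion 12734639 to 12734649 had 5.92% (3.25 to 10.5%), an interval that includes the unedited 3.63%. The rarer deletions of 10 to 12 bases had higher shares than unedited RNA. Among those with under 100 ends each, 12734670 held 13.9% of the ends with 10 deleted bases (9.06 to 20.6%, 10 deletions), 10.5% with 11 bases (6.76 to 16.0%, 15 deletions) and 9.85% with 12 bases (6.81 to 14.04%, 18 deletions). With 13 bases it held 4.55% (1.56 to 12.5%) and with 14 bases 3.52% (1.92 to 6.36%), both from deletions of under 100 ends. Over every deletion that kept the cluster, the near share was 59.6% with 3 deleted bases, 39.6% with 9, 9.53% with 12 (8.07 to 11.2%) and 31.4% with 15, so it was lower at 12 bases than at 9 or 15. The length was picked out after these values were seen. All 6-base deletions together had 8.12% of their ends at 12734670 (6.41 to 10.2%), near the 8.24% (5.76 to 11.6%) of all 11-base deletions. The 6-base deletion 12734640 to 12734645 had 15.6% there (11.7 to 20.5%).

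Length and reading frame were not independent of each other, so both are given. Among deletions with edges up to 12734649, those that shift the frame had 42.2% near ends (40.7 to 43.6%, 4547 ends over 180 deletions) and those that keep it had 32.2% (31.2 to 33.3%, 7474 ends over 105 deletions). With edges at 12734650 to 12734659 the near share was 26.1% (22.6 to 29.95%) with a shifted frame and 16.6% (15.6 to 17.6%) with the frame kept. Frame is fixed by length, so it cannot be compared at equal length. Within broad length groups the order was the same. With 3 to 9 deleted bases and edges up to 12734649 the near share was 58.4% with a shifted frame and 46.02% with the frame kept, and with 10 to 29 bases it was 34.99% with a shifted frame and 21.01% with the frame kept. Without its most frequent deletion, 12734623 to 12734642, the frame-shifted group of 10 to 29 bases had 29.7% (27.9 to 31.7%).

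The deletions that removed the near starts show what was left. The 50-base deletion 12734616 to 12734665, with 542 ends, takes away the start codon and every near start but keeps 12734670 and the starts on C. Of its ends, 88.2% began in the upstream cluster (478 ends) and 7.75% at 12734681 to 12734687 (5.78 to 10.3%), while 12734670, 5 bases from its edge, was not seen (0 of 542). The same farther starts took 12.5% of the unedited ends, a share that also counts the near starts, which this deletion removed. Relative to the upstream cluster, 12734681 had a use of 0.220 (0.135 to 0.357) with 16 to 19 retained bases. Of the 517 upstream ends there, 478 came from this deletion. Since few ends with under 8 retained bases were listed for any deletion, the 0 at 12734670 sets no limit on the use of that start. In the 30-base deletion 12734639 to 12734668, 95.1% of 103 ends began upstream, and in the 57-base deletion 12734616 to 12734672, which keeps 9 bases before 12734681, 7 of 73 ends began at 12734681 to 12734687. Among deletions with edges at 12734669 to 12734684 the upstream cluster gave 96.1% of 436 ends.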

How the data were processed

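Capped 5′ ends were read by CRISPR-Cap in HEK293T cells; cap removal and ligation of an RNA adapter with 8 random bases were followed by reverse transcription from a primer in each gene, per the labels' protocols. STAR and hg38 are named in the submitters' processing notes, with no version of the aligner. The authors deposited 1 list with a line per 5′ end: its position, its class and the edges of its deletion. The sources used here leave unstated if lines stand for reads or for molecules. The list pools 2 libraries. Reporter (STAP-seq) files were not used.

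Positions were read as counted from 0, since adding 1 put 73.7% of the unedited ends of this target on a purine after a pyrimidine, against 0.676% without it. Deletions were used at their listed edges. Sequence and annotation came from GENCODE release 29 on the same build. Shares carry Wilson intervals and differences Newcombe intervals (95%); the matched comparison weights deletions by edited ends, with binomial and delta-method error, and was tested on simulated data. Relative-use intervals are for the log ratio of 4 counts. Starts with at least 2% of either class, the 10 largest deletions, the 5 largest that overlap the cluster and those near its border were to be named; deletions sharing an edge with these were added after their values were seen, as were the groups by edge, frame, length and motif and the near and farther starts. The members and lists were chosen with earlier results of these data known. Python 3.11.15, pandas 2.3.3 and numpy 2.4.6 were used.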

Additional observations from a re-analysis of the deposited data

How the results depend on the processing

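No paired analysis was possible because the list holds no library column, so leaving out each replicate was not run either. No result changed direction in 47 values computed for 7 results; 29 stayed within the counting interval of the reported value and the rest are given here, the cause of each not tested unless the setting itself changes what is counted. Results on single starts, edges and lengths were recomputed as alternatives chosen after seeing the data. The downstream share difference (reported −8.62 points) was −4.89 with every deletion of at least 50 ends given the same weight. Without the most frequent deletion it was −5.77. With clusters as 10 bases on either side of their most used position it was −6.91. This window setting also left out every deletion with its edge at 12734653 or beyond, the most frequent one included, here and in the values below. The matched difference (−7.69) was −4.35 with equal weights, −5.16 without the most frequent deletion, and −4.61 and −1.28 with at least 12 and 20 retained bases, which leaves out the nearest starts. The main start's part of the upstream ends (4.47 points) was 2.76 with equal weights and 2.74 with the 10-base windows. The share of 12734660 among downstream ends (−9.60) was −8.90 with equal weights and −11.7 with the windows. The downstream share of deletions with edges at 12734650 to 12734659 minus that of edges up to 12734649 (−25.4 points) was −21.8 with deletions moved to the highest coordinate. It was −29.4 with equal weights and −21.9 without the most frequent deletion. With the windows, edges at 12734650 to 12734652 minus edges up to 12734649 gave −18.5. The near share of deletions of 10 to 29 bases minus that of 1 to 9 bases (−22.9 points) was −25.2 with equal weights. The edited share (39.6%) was 38.6% with deletions of at least 10 ends and 39.2% with deletions of at least 3 bases. Without the deletion that holds the most upstream ends, the relative use of 12734663 at 8 to 19 retained bases was 0.579 in place of 0.494, that of 12734660 at 20 or more was 0.363 in place of 0.300, and that of 12734681 at 8 to 19 was 0.0796 in place of 0.164. Precision is limited by the pooled list, and counts below about 20 ends, as in the widest and narrowest distances, give intervals of over 2-fold.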
